A study of Mus musculus with 2 samples.

Results

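The 7 microRNA loci described here are Mir375, Mir216a, Mir216b, Mir217, Mir192, Mir194-1 and Mir194-2, which are known from gut, liver and pancreas, and of which Mir375 is also made in some neurons. They were chosen by name, from what is known of these microRNAs in other tissues, but with earlier results of these data known. They are 7 of the 1973 loci in the tables. The tissue was hindbrain of B6NCrl mouse embryos at embryonic day 14.5, and the assay was sequencing of RNA under 30 nucleotides, the size range of mature microRNAs. The series holds 1 group, with no treatment, genotype or time point to compare, and 2 libraries. Replicate 1 was collected on 24 July 2014 and replicate 2 on 30 July 2014. The labels number these samples as biological replicates 1 and 2. They call each sample a single hindbrain but also give its sex as a pool of males and females. The donor named is the same for each, so it is unclear if separate embryos were used. The SD thus measures only the spread between these samples, part of which may be technical.

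A microRNA locus is transcribed into a longer RNA, from which a hairpin is cut and then processed to a mature strand of about the length sequenced here. Bases 2 to 8 of the mature strand, the seed, pair with target messenger RNAs. Mir375 is known from pancreatic islets, where it restrains insulin secretion and supports beta cell mass, and from other endocrine cells. Mir216a, Mir216b and Mir217 are known from the acinar cells of the pancreas. Mir192 and the Mir194 loci are known from epithelia of the intestine, liver and kidney.

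The mature sequences below come from RefSeq (GRCm38.p6) and are written 5′ to 3′ with the seed in capitals. They are shown because shared letters decide which reads a table of uniquely placed reads can hold. RefSeq entries for 12 mature strands matched the 7 loci, and Mir215, the neighbour of Mir194-1, is added because of its seed.
mmu-miR-375-5p: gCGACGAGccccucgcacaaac
mmu-miR-217-5p: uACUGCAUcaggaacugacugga
mmu-miR-216a-5p: uAAUCUCAgcuggcaacuguga
mmu-miR-216b-5p: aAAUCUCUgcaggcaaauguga
mmu-miR-192-5p: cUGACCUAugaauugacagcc
mmu-miR-215-5p: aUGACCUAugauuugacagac
mmu-miR-194-5p: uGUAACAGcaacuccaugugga
mmu-miR-194-1-3p: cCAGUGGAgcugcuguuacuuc
mmu-miR-194-2-3p: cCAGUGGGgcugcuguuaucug

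miR-192-5p and miR-215-5p have the same seed, UGACCUA, and are identical at 18 of 21 positions. Counted from the 5′ end of miR-192-5p, they differ by C1A, A12U and C20A. miR-216a-5p and miR-216b-5p share bases 2 to 7 but not base 8, and are identical at 18 of 22 positions, differing by U1A, A8U, U11A and C17A. No other mature entry in the RefSeq table had the seed of miR-217-5p, miR-375-5p or miR-194-5p. For Mir375 the entries held only the 5p strand, so the seed of miR-375-3p was not compared. The tables count reads per hairpin, so the strands of a hairpin (5p and 3p, with miR-375-3p the product for which Mir375 is best known) could not be told apart.

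miR-194-5p is encoded whole, all 22 bases, in the hairpins of both Mir194-1 and Mir194-2. Of the 1005 hairpins in the RefSeq table, Mir194-1 and Mir194-2 shared a run of at least 20 bases only with each other. The other 5 members shared at most 12 bases in a row with any other hairpin. Multimapping reads made up 33.9% (replicate 1) and 34.3% (replicate 2) of the sequenced reads and stand in a row of their own, outside the loci. A read of exactly miR-194-5p fits both Mir194 loci, so the levels of both are uncertain. Their 3p strands differ by G8A, U19C, C20U and G22C, counted from the 5′ end of miR-194-2-3p, and could be told apart.

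The libraries held 5826676 (replicate 1) and 6667238 (replicate 2) counts on the gene strand of microRNA loci, and levels are given as CPM, counts per 1000000 of these. The labelled tissue was checked against microRNAs of the hindbrain Hox clusters and of neurons. Mir10a and Mir10b, encoded in the Hox clusters, had the second and the third highest mean level of all loci with 96400 and 63192 CPM. Of the 7 neuronal loci 6 were detected, with a summed level of 14307 CPM in replicate 1 and 16254 CPM in replicate 2. Mir137 led them at rank 17 with 10171 CPM, followed by Mir153 (2259 CPM), Mir128-1 (1781 CPM) and Mir128-2 (1058 CPM). The Mir124a loci, whose product is abundant in neurons, stood far lower, with 7.75 CPM for Mir124a-1, 3.13 CPM for Mir124a-2 and 1.03 CPM for Mir124a-3, which was not detected. Reads that fit more than 1 Mir124a locus are left out of these counts, so they do not measure the level of that product.

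All 7 loci had counts in both libraries, and 6 of them had at least 10 counts in each library, the minimum for calling a locus detected. Of all loci, 20.3% (401 of 1973) passed that minimum. The 7 loci together held 8108 counts in replicate 1, a share of 0.139% (95% Clopper-Pearson interval 0.136 to 0.142), and 8439 counts in replicate 2, a share of 0.127% (0.124 to 0.129). Reads were counted without molecular identifiers, so each interval covers counting error only. In whole tissue, fewer cells of a type and less RNA per cell cannot be told apart. The mean share was 0.133% ± 0.00889 (SD, n = 2). Mir375 alone made up 49.0% of these counts in replicate 1 and 44.6% in replicate 2.

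**Figure D1:**
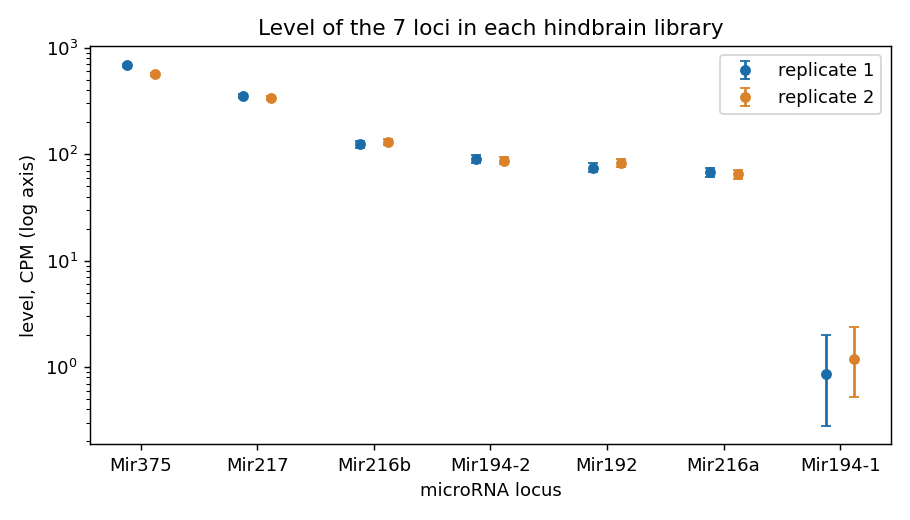
Level of each locus in CPM on a log axis, by library (blue, replicate 1; orange, replicate 2), with 95% Clopper-Pearson intervals as bars. Mir375 was highest in both libraries (682 and 564 CPM), and Mir194-1 was lowest, with wide intervals around 0.858 and 1.20 CPM.

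Mir375, the islet microRNA, was the most abundant of the 7. It had 3974 counts in replicate 1 and 3762 in replicate 2, or 682 CPM (interval 661 to 704) and 564 CPM (546 to 583). Its mean was 623 ± 83.3 CPM (SD, n = 2), rank 115 of the 1973 loci. The level in replicate 1 was the higher one, and the counting intervals of the libraries did not overlap.

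Mir375 lies on chromosome 1 at 74900658 to 74900721 (GRCm38, minus strand), outside every other annotated gene. The nearest protein-coding genes were Cfap65, 1350 bases away, and Cryba2, which encodes a lens crystallin, 7515 bases away. Its hairpin of 64 nucleotides was 67.2% G and C, against a median of 51.7% over the 1005 hairpins in the RefSeq table. The 3 loci most like Mir375 in level, by the distance of log2(CPM + 1) over the 2 libraries, were Mir320 (599 and 582 CPM), the skin microRNA Mir203 (639 and 656 CPM) and Mir448 (635 and 477 CPM). With 2 libraries this measure reflects level and 1 difference only.

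The pancreatic acinar microRNAs came next. Mir217 had 2045 and 2230 counts in replicates 1 and 2, or 351 and 334 CPM, with a mean of 343 ± 11.7 CPM (SD, n = 2) at rank 145. Mir216b had 724 and 873 counts, or 124 and 131 CPM, with a mean of 128 ± 4.73 CPM at rank 204. Mir216a had 394 and 431 counts, or 67.6 and 64.6 CPM, with a mean of 66.1 ± 2.10 CPM at rank 235. For each of these 3 loci the counting intervals of the libraries overlapped. Their coefficients of variation, SD over mean, were 3.40% for Mir217, 3.70% for Mir216b and 3.18% for Mir216a, against 13.4% for Mir375 and a median of 7.75% over the 401 detected loci. Each of these values rests on 2 libraries and includes counting error, so whether the loci differ in stability was not tested.

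These 3 loci lie in a row on the plus strand of chromosome 11, within 17645 bases. Mir216b stands first, at 28746191 to 28746276, then Mir216a at 28757012 to 28757083 after a gap of 10735 bases, and Mir217 at 28763728 to 28763835 after a further 6644 bases. Mir216a and Mir217 lie in introns of the long noncoding RNA gene Gm12082 on the same strand, and Mir216b lies outside it. Mir216b overlaps Mir216c on the opposite strand, which has no row of its own, and the opposite-strand column of Mir216b held 0 counts in both libraries. Taking 3 counts as the limit for a count of 0, this allows a level of up to 0.515 CPM (replicate 1) and 0.450 CPM (replicate 2).

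Together the 3 loci reached 543 and 530 CPM in replicates 1 and 2 (mean 536 ± 9.05, SD, n = 2). Mir217 held the largest part of the counts, 64.7% in replicate 1 (interval 63.0 to 66.3) and 63.1% in replicate 2 (61.5 to 64.7). Mir216b held 22.9% (21.4 to 24.4) and 24.7% (23.3 to 26.2). Mir216a held 12.5% (11.3 to 13.7) and 12.2% (11.1 to 13.3). The order within the cluster was thus the same in both libraries, and the intervals of each locus overlapped between libraries. Mir216b exceeded Mir216a, with which it shares seed bases 2 to 7, by 1.84-fold and 2.03-fold in counts, and the pair together had 192 and 196 CPM.

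**Figure D2:**
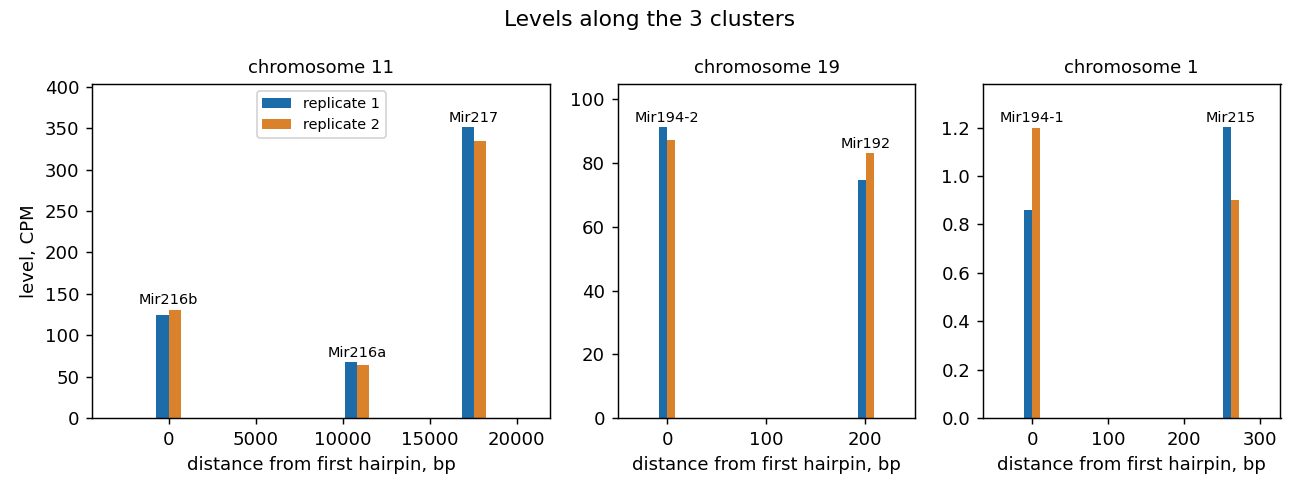
Level in CPM of the hairpins in each of the 3 clusters, plotted by the distance of each hairpin from the first one in bases (blue bars, replicate 1; orange bars, replicate 2; each panel has its own axis from 0). Mir217 stands above Mir216b and Mir216a on chromosome 11. Mir194-2 and Mir192 on chromosome 19 are near each other in level, counted from uniquely placed reads. Mir194-1 and Mir215 on chromosome 1 reach at most 1.20 CPM.

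Among the gut and liver microRNAs, the pair on chromosome 19 was detected and the locus on chromosome 1 was not. Mir194-2 had 531 and 581 counts in replicates 1 and 2, or 91.1 and 87.1 CPM, with a mean of 89.1 ± 2.82 CPM (SD, n = 2) at rank 218. Mir192 had 435 and 554 counts, or 74.7 and 83.1 CPM, with a mean of 78.9 ± 5.97 CPM at rank 227. Mir194-2 was the higher one in both libraries, with 55.0% (interval 51.8 to 58.1) and 51.2% (48.2 to 54.1) of the counts of the pair, so that in replicate 2 the difference was within counting error. Mir194-2 lies at 6264643 to 6264728 and Mir192 at 6264844 to 6264932, 115 bases apart on the plus strand between Atg2a, an autophagy gene, and Ehd1. Neither overlapped another annotated gene.

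Mir194-1 had 5 counts in replicate 1 and 8 in replicate 2, or 0.858 CPM (interval 0.279 to 2.00) and 1.20 CPM (0.518 to 2.36), with a mean of 1.03 ± 0.242 CPM (SD, n = 2). It occupies bases 185313319 to 185313385 of chromosome 1, within an intron of the opposite-strand gene Iars2, which encodes the mitochondrial isoleucyl-tRNA synthetase, and of the same-strand transcript 2010103J01Rik. Its neighbour Mir215, 195 bases further on, had 7 and 6 counts, or 1.20 and 0.900 CPM. Both loci of this pair were near the 3 counts that a count of 0 allows.

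Mir194-2 exceeded Mir194-1 by 106-fold in replicate 1 and 72.6-fold in replicate 2 in uniquely assigned counts. Because the miR-194-5p sequence printed above is common to both hairpins, this ratio covers only reads that could be placed at 1 of them. Mir192 exceeded Mir215, which has the same seed, by 62.1-fold and 92.3-fold. The sequences of Mir192 and Mir215 differ enough that no run of 20 bases is shared, and the pair together had 75.9 and 84.0 CPM.

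**Figure D3:**
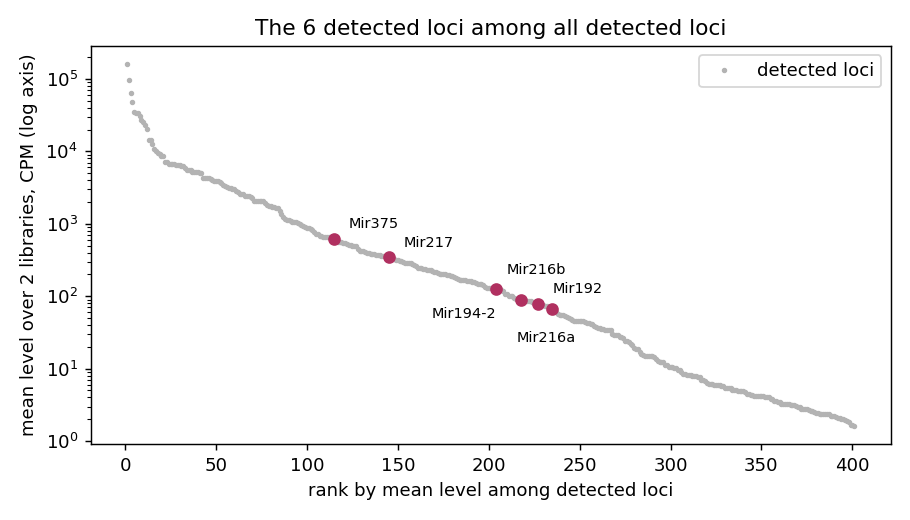
Mean level of the 401 detected loci in CPM on a log axis, by rank (grey), with the 6 detected members in red. Mir375 and Mir217 lie above the median detected locus (130 CPM), and Mir216b, Mir194-2, Mir192 and Mir216a lie below it.

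The order of levels was the same in both libraries, from Mir375 over Mir217, Mir216b, Mir194-2, Mir192 and Mir216a to Mir194-1. The median mean level of the 401 detected loci was 130 CPM, and 2 of the 7 members exceeded it. Mir375 exceeded Mir216a, the lowest detected member, by 10.1-fold in replicate 1 and 8.73-fold in replicate 2. For each of the 6 pairs of neighbours in this order the ranges over the 2 libraries did not overlap. The closest neighbours were Mir194-2 and Mir192, whose means differed by 10.3 CPM with SDs of 2.82 and 5.97, and Mir192 and Mir216a, which differed by 12.7 CPM. Counting intervals overlapped for Mir194-2 and Mir192 in replicate 2 (80.2 to 94.5 and 76.3 to 90.3 CPM) and for Mir192 and Mir216a in replicate 1 (67.8 to 82.0 and 61.1 to 74.6 CPM). The levels of Mir194-2 and Mir194-1 leave out reads that fit both of them, so their places in the order are uncertain. Small RNA libraries capture some sequences better than others, and this bias was not measured, so none of these orders was tested.

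Mir375 and Mir217 were lower in replicate 2 than in replicate 1 by more than counting error, and the other 5 members did not pass that test. The test was a two-sided exact binomial test of each locus's count in replicate 2, given the sum over the libraries and edgeR's TMM scaling, with Benjamini-Hochberg adjustment over the 498 loci whose counts summed to at least 10. Mir375 had a log2 ratio of replicate 2 over replicate 1 of -0.32 (95% interval -0.38 to -0.25, exact binomial adjusted p = 5.93e-21). Mir217 had a log2 ratio of -0.11 (-0.20 to -0.02, exact binomial adjusted p = 0.0362).

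The calls of 2 of 7 members were both in the direction of lower in replicate 2. Over all tested loci, 32.5% were called, 17.5% higher and 15.1% lower in replicate 2. The members' share of calls was near that of all loci. The members' median log2 ratio was -0.11, over all 7, beside 0.01 over the 498 loci. The test compares these 2 libraries and not conditions, and collection day and replicate cannot be told apart.

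The test covers counting error alone. With edgeR's common dispersion allowed for in an exact test, which corresponded to a coefficient of variation of 10.8% between the libraries, 0 of the 7 members were called, and 0 at an unadjusted p under 0.05. The exact test with this dispersion called 1.41% of all loci, and 5.42% at an unadjusted p under 0.05. The dispersion was estimated from the same 2 libraries that the test compares. The differences tested thus also set the spread, and few calls were to be expected. Mir375 then had an unadjusted exact p of 0.158 and an adjusted p of 1. Of 282 loci that had at least 100 counts in both libraries, 35 had a log2 ratio farther from 0 than Mir375 had.

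For the members that did not pass, the log2 ratios were -0.11 for Mir216a (-0.31 to 0.09) and 0.03 for Mir216b (-0.11 to 0.18). Mir217 shares their cluster and had -0.11. On chromosome 19, Mir194-2 had -0.11 (-0.28 to 0.07) and its neighbour Mir192 had 0.11 (-0.07 to 0.30). Mir194-1, from 13 counts in all, had 0.39 (-1.35 to 2.40), an interval too wide to show a difference of 2-fold. The direction of Mir217 was the same under each scaling tried, but its call was lost with library totals in place of TMM (log2 ratio -0.070, exact binomial adjusted p = 0.252).

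**Figure D4:**
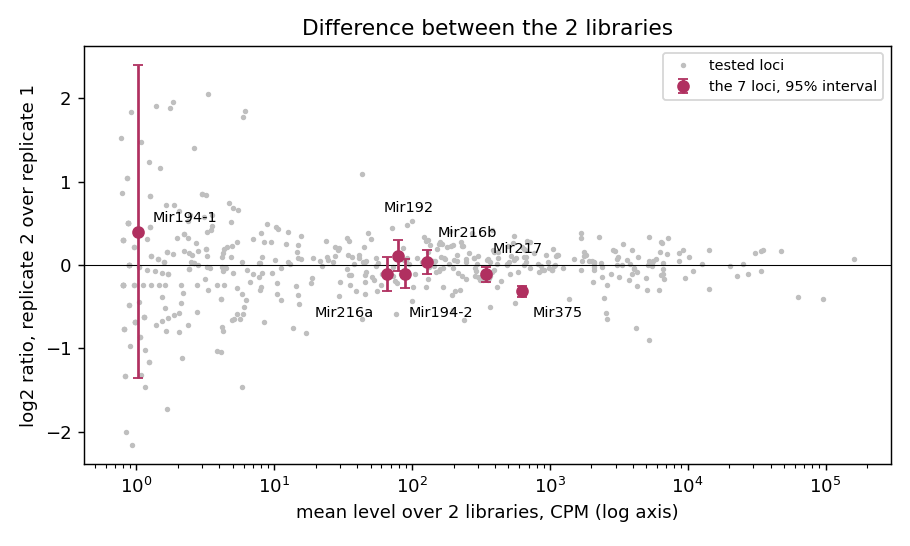
Log2 ratio of replicate 2 over replicate 1 against mean level in CPM (log axis) for the 498 tested loci (grey) and the 7 members (red, with exact 95% intervals). Mir375 lies at -0.32 with its interval below 0, and the interval of Mir194-1 runs from -1.35 to 2.40.

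Other microRNAs known from endoderm and endocrine cells were read beside the 7. Of 9 such loci, 7 were detected, and their summed level was 2053 CPM in replicate 1 and 2128 CPM in replicate 2. The miR-7 loci, known from endocrine cells and from neurons, led them: Mir7b had 941 and 995 CPM, Mir7-1 had 392 and 389 CPM, and Mir7-2 had 239 and 258 CPM. Reads that fit more than 1 miR-7 locus are left out of these levels and of the sum. Their effect on the order was not tested. Mir148a, known from liver and pancreas, had 241 and 274 CPM, and Mir483, in an intron of the fetal growth factor gene Igf2, had 222 and 185 CPM.

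The hepatocyte microRNA Mir122 had 80 and 105 counts, or 13.7 and 15.7 CPM, and lay below each of the 6 detected members. Mir802, known from liver and pancreas, had 2 and 10 counts and was not detected. Mir184 had 15 and 65 counts, or 2.57 and 9.75 CPM. In the exact binomial test 2 of these 9 loci were higher in replicate 2, Mir184 (log2 ratio 1.84) and Mir148a (0.14), 1 was lower, Mir483 (-0.31), and 6 did not pass. Over all tested loci, that test called 17.5% higher and 15.1% lower in replicate 2. With the common dispersion, 1 of the 9 loci, Mir184, was called. The median log2 ratio of the 9 loci was 0.07.

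Markers of other cells that the tissue could hold were measured in the same libraries. The 7 epithelial loci were all detected, with a summed level of 753 CPM in replicate 1 and 767 CPM in replicate 2, most of it from Mir203. Mir429, of the miR-200 family that marks epithelia, had 29.3 and 37.9 CPM, Mir200c had 18.2 and 19.9 CPM, Mir200b 8.92 and 12.4 CPM, Mir141 2.06 and 3.90 CPM and Mir200a 3.26 and 2.25 CPM. The epithelial Mir205 was called lower in replicate 2 by the exact binomial test with a log2 ratio of -0.64, as Mir375 was. Mir203 (-0.01) and the miR-200 loci did not pass. With the common dispersion, 0 of the 7 epithelial loci were called.

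The choroid plexus microRNA Mir204 had 2759 and 2153 CPM and the Hox cluster loci Mir10a and Mir10b had log2 ratios of -0.41 and -0.38, all called lower in replicate 2 by the exact binomial test. Of the 7 neuronal loci, 4 were called higher in replicate 2 and 0 lower: Mir153 (log2 ratio 0.33), Mir128-2 (0.19), Mir128-1 (0.15) and Mir137 (0.09). Over all tested loci, the exact binomial test, which covers counting error only, called 17.5% higher and 15.1% lower in replicate 2. With the common dispersion, 0 of the 7 neuronal loci were called, and neither were Mir204, Mir10a and Mir10b. None of these loci had an unadjusted p under 0.05 in that exact test. The 4 red cell and myeloid loci had summed levels of 472 and 595 CPM, and 2 of them were called higher in replicate 2. These 2 were Mir144 (log2 ratio 1.09) and Mir451a (0.38). Mir144 was also called with the common dispersion (edgeR exact test adjusted p = 0.00834). Mir486, which went the other way (log2 ratio -0.47), and Mir223 (0.06) did not pass. The 5 muscle loci with a row had summed levels of 15.4 and 16.5 CPM, nearly all from Mir206, with Mir1a-1 and Mir133a-1 at 0 counts. Reads that fit more than 1 locus are left out, so 0 counts do not show that a mature strand was absent. The part of the cells that these markers stand for in the levels of the 7 loci was not tested.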

How the data were processed

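Per the labels, small RNA libraries were made from total RNA. The values are counts as deposited: whole reads for each microRNA locus, with no normalization, in 1 column for both strands and 1 for each strand. Lists of files deposited with them name build mm10 and annotation M4. Neither the aligner nor the counter is given in the sources used here. Gene-strand counts were used, which were 98.0% and 97.8% of counts on loci. The 4 rows without a locus entered neither library sizes nor tests. In replicates 1 and 2 they held 13.8% and 15.9% unmapped, 33.9% and 34.3% multimapping and 2.99% and 3.31% reads outside the loci, of 11804816 and 14348369 reads.

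Symbols and positions are those of GENCODE M21 (GRCm38), matched for 1894 of 1973 loci. CPM divided by gene-strand totals. TMM factors were 0.985 and 1.01, and log2 ratios added 0.5 to each count. With 1 library on each side a quasi-likelihood fit leaves no residual degrees of freedom, so exact binomial tests were used, at an adjusted p of 0.05. The test was checked on simulated counts that held counting error only, so the check did not cover further spread between libraries. Alternatives covered strand, denominator, count minimum, scaling (DESeq2 size factors, library totals or the upper quartile), filter, pseudocount, summed Mir194 loci and dispersion.

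Clusters were meant to hold loci within 10 kb. Mir216b lies 10735 bases from Mir216a and was kept. The members and lists were chosen with earlier results of these data known. Named were the 7 members, 9 related loci, leading markers and the 3 loci nearest to Mir375 in level. Other markers named were chosen after their values were seen. Scaling and dispersion were computed with edgeR 4.0.16 and DESeq2 1.42.0 in R 4.3.3. Tests used scipy 1.17.1 in Python 3.11.15.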

Additional observations from a re-analysis of the deposited data

How the results depend on the processing

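Of 126 combinations of a result with an alternative, 105 were labelled the same. For log2 ratios this meant the same direction and call. For levels and shares it meant within the SD of the replicates, and for counts of loci within a set fold. Leaving out 1 of 2 replicates always stays within that SD, and the pseudocount does not enter the binomial test. Those alternatives could not have moved a level, share or call. None of the 56 alternatives for log2 ratios turned a direction. With edgeR's common dispersion the calls of Mir375 (log2 ratio -0.32, exact test adjusted p = 1, from 5.93e-21) and Mir217 (-0.11, adjusted p = 1) were lost, leaving 0 members and 7 loci called. The call of Mir217 was also lost with library totals (-0.070, exact binomial adjusted p = 0.252) and with no filter (-0.11, adjusted p = 0.0536, over the 743 loci with at least 1 count, a limit set after values were seen), leaving 1 member. Over its alternatives the adjusted p of Mir217 ran from 0.0121 to 1. Over all loci, calls higher and lower in replicate 2 were 87 and 75, and 114 and 59 with library totals.

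Denominators moved the levels. Per 1000000 reads of the tables, unassigned ones included, the means were 299 for Mir375, 164 for Mir217, 61.1 for Mir216b, 42.7 for Mir194-2, 37.7 for Mir192, 31.7 for Mir216a and 0.491 for Mir194-1, and the summed share was 0.0637%. Per 1000000 uniquely mapped reads all means were lower than in CPM. They were 322 for Mir217, 120 for Mir216b, 83.6 for Mir194-2 and 62.0 for Mir216a, each beyond the SD of the replicates. Those of Mir375 (585), Mir192 (74.0) and Mir194-1 (0.965) stayed within their larger SDs relative to the mean. The summed share was 0.124% without the Mir194 loci. Leaving out a replicate gives the other's value, so no ratio could be fitted then. Mir194-1 had the fewest counts, 5 and 8.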
